A study of Mus musculus with 12 samples.

Results

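The genes described here encode the main cannabinoid receptor of the brain and the proteins that make, break down or accompany its lipid ligands. The 9 genes Cnr1, Cnrip1, Dagla, Daglb, Mgll, Abhd6, Abhd12, Napepld and Faah were chosen by name among the 57132 features of the count table. All 9 were present once, were protein-coding and passed the filter on low counts, a level of 0.5 CPM (counts scaled to the library's total) or more in 3 or more libraries, which 13902 features passed. RNA sequencing was done on the striatum of C57Bl/6 mice of 10 months of age, 6 labelled TAAR5-KO, a knockout of trace amine-associated receptor 5, and 6 wild-type (WT) littermates. The striatum is what remained of a coronal brain slice once the cortex was removed, and each labelled sample is 1 animal. No treatment and no tissue-specific Cre line is named for either group, and both sexes were used, but neither sex nor animal number is tied to a library. Libraries are called KO-labelled (NK1 to NK6) or WT-labelled (NK7 to NK12).

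Endocannabinoids are lipids that neurons make on demand from membrane phospholipids. In the striatum, 2-arachidonoylglycerol (2-AG) leaves the dendrites of medium spiny neurons, travels backwards across the synapse and activates the CB1 receptor on the axon terminal, which lowers transmitter release. Diacylglycerol lipases make 2-AG, and monoacylglycerol lipase and ABHD hydrolases break it down. Anandamide, the other main ligand, is released by NAPE-PLD and related enzymes and hydrolysed by fatty acid amide hydrolase.

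Total counts ran from 11269915 to 34824450 per library, of which ribosomal RNA features held between 64.3% and 88.1%. The 9 genes together had between 690 counts in NK9 and 4398 in NK12. Values are CPM scaled by edgeR's TMM factors (trimmed mean of M-values), on which 1 count was worth between 0.0226 and 0.120 CPM. The targeted gene Taar5 had 1 to 6 counts in the KO-labelled libraries and 0 to 2 in the WT-labelled ones, against what the labels say (exact permutation test of 6 against 6, p = 0.0195), so libraries are named by their label throughout. Whether labels were exchanged or the mutant allele leaves transcribed sequence was not tested, and every direction given here would turn over with exchanged labels. All 9 markers of striatal spiny neurons were counted in every library, with a summed level of 195.5 to 430.7 CPM. Although the cortex was dissected off, the 5 markers of cortical pyramidal neurons were also counted in every library, with a summed level of 25.2 to 101.8 CPM.

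For none of the 9 genes did a difference between the labels pass the test against the spread between libraries. At a Benjamini–Hochberg adjusted p under 0.1 of edgeR's likelihood ratio test, 0 of 9 were called, beside 1.65% of all features tested (229 of 13902). The adjusted p of the 9 ran from 0.380 to 0.90. The quasi-likelihood test of edgeR (0.453% of all features called) and DESeq2 (1.27%) also called 0. DESeq2 gave no adjusted p for 7009 of the 13902 features, Daglb and Napepld among them, and its 1.27% counts these as not called. By the likelihood ratio test 1 of the 9, Daglb, had an unadjusted p under 0.05, as did 11.9% of all features tested. Fold changes of the KO-labelled libraries over the WT-labelled ones ran from 0.803 for Daglb to 1.11 for Cnr1, and the groups overlapped for all 9. How often groups overlap among all features tested was not computed, so this overlap is a description only. The 95% intervals lay between 0.651 and 1.27 as folds, so a change of the average level outside these bounds lay outside the interval of each gene. The fitted difference was below 0 for 7 of the 9, beside 7104 of the 13902 features tested, and above 0 for Cnr1 and Dagla. The median log2 fold change of the 9 was −0.14, beside −0.01 over all features tested. In a fit with each library's trend on GC content removed, these medians were −0.06 and 0.01. In bulk tissue, fewer cells of a type and less RNA per cell cannot be told apart.

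**Figure D1:**
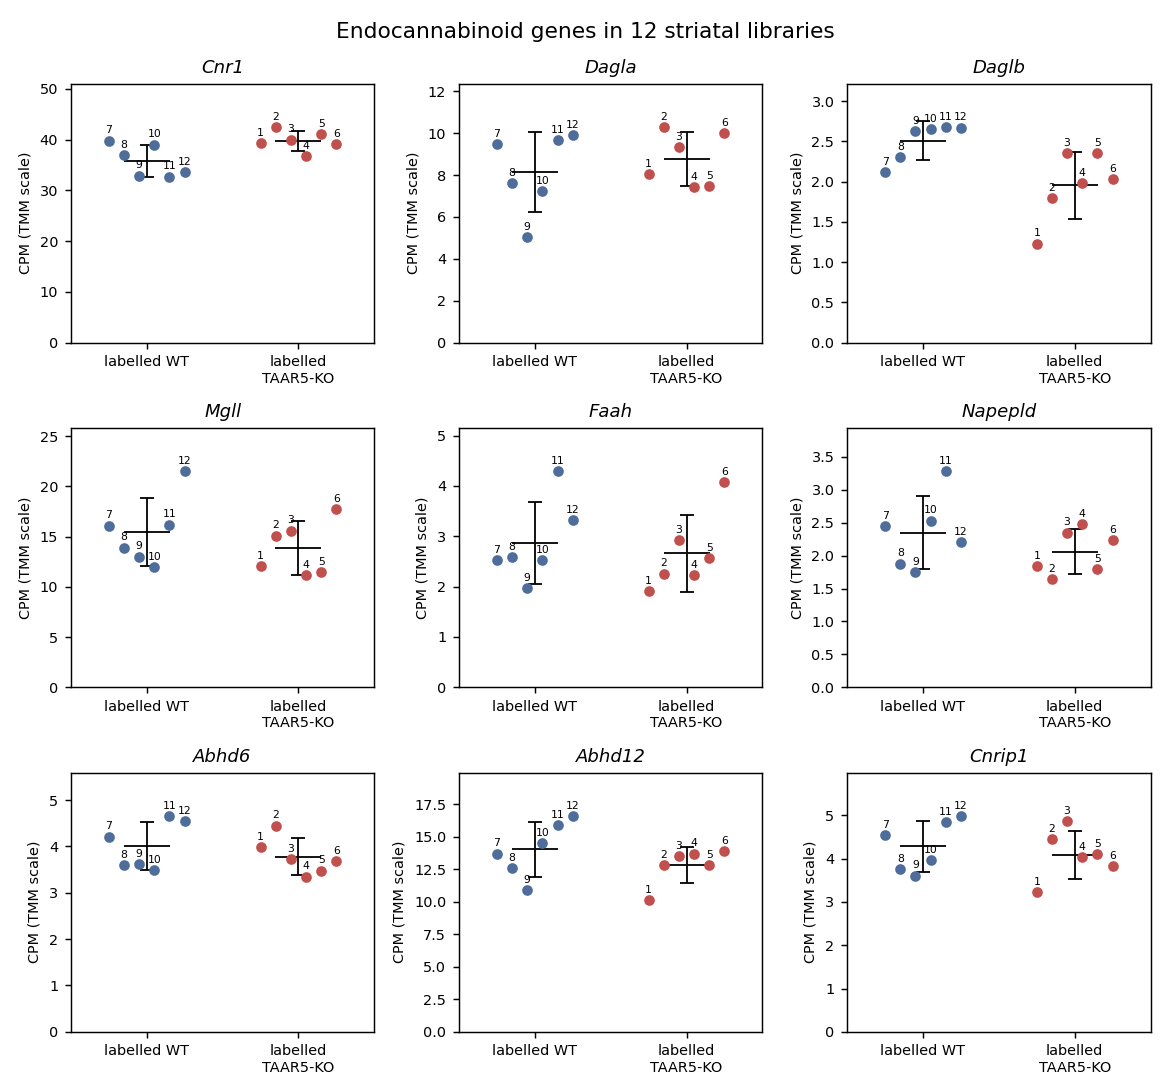
CPM on the TMM scale of the 9 genes in each library, WT-labelled in blue and KO-labelled in red, with the library number beside each point and the mean and SD of 6 libraries in black. The groups overlap in all 9 panels, and 4 of the 6 WT-labelled libraries lie above all KO-labelled ones for Daglb.

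Cnr1 encodes CB1, the G protein-coupled receptor of 2-AG and anandamide, and had the highest level of the 9. It lies on chromosome 4 of GRCm39 from 33924593 to 33948831 on the plus strand (ENSMUSG00000044288.7) and had between 301 and 1499 counts per library. In the KO-labelled libraries its lowest, median and highest levels were 36.7, 39.7 and 42.5 CPM. In the WT-labelled ones they were 32.7, 35.3 and 39.8 CPM. The 3 highest values belonged to KO-labelled libraries (NK2, NK3 and NK5) and the 3 lowest to WT-labelled ones (NK9, NK11 and NK12), while the rest overlapped. On the log2 scale the KO-labelled mean differed by 0.15 with an SE of 0.085 (likelihood ratio test of edgeR, adjusted p = 0.488, 95% interval −0.02 to 0.32). Leaving out each library in turn gave 0.12 to 0.19. The coefficient of variation was 4.94% in the KO-labelled libraries and 8.85% in the WT-labelled ones, against a median of 3.93% that counting alone gives.

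Beside this, the summed level of the 9 spiny neuron markers was 332.9 to 430.7 CPM in the KO-labelled libraries and 195.5 to 369.2 in the WT-labelled ones (two-sided exact permutation test, p = 0.0260, adjusted over 10 marker lists p = 0.0938). All 9 of these markers had a positive log2 fold change and 0 were called. The lowest sum, 195.5 CPM, was that of NK11, which also had the lowest level of Cnr1. Over the 12 libraries the log2 level of Cnr1 had Pearson's r = 0.564 with the log2 sum (permutation p = 0.0444, adjusted over 90 relations of genes and marker lists p = 0.308) and Spearman's rho = 0.371 (permutation p = 0.236, adjusted p = 0.598). Without NK11 and NK4 its r was 0.419, and it was −0.402 within the KO-labelled and 0.517 within the WT-labelled libraries, so no relation held within both. An r as high as that of Cnr1 over the 12 libraries was reached by 5.88% of all features. Each of the other genes described here had a negative r with this sum. These ran from −0.338 for Dagla to −0.732 for Faah (permutation p = 0.00328, adjusted p = 0.0984). By Spearman's rho Mgll was furthest from 0 at −0.79 (permutation p = 0.00343, adjusted p = 0.0772), with Faah at −0.713 (permutation p = 0.0118, adjusted p = 0.157). The sign depended on the scaling. With counts outside ribosomal RNA as the only scaling, r of these genes with this sum was positive, from 0.519 for Faah to 0.658 for Abhd12.

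Cnrip1 encodes a small protein that binds the intracellular tail of CB1. It lies on chromosome 11 from 17001586 to 17029371 (plus strand, ENSMUSG00000044629.6), and 199 bases of its exons are shared with Plek on the minus strand. It had 4.08 ± 0.558 CPM (SD, n = 6) in the KO-labelled libraries and 4.29 ± 0.585 CPM (SD, n = 6) in the WT-labelled ones. Its lowest level was 3.22 CPM in NK1 and its highest 4.99 CPM in NK12. This was a log2 difference of −0.12 with an SE of 0.13 (likelihood ratio test of edgeR, adjusted p = 0.771), and it was −0.07 without NK1 and −0.06 without NK12. Per length of exon, Cnrip1 had 0.133 to 0.197 times the level of Cnr1 in the KO-labelled libraries and 0.164 to 0.240 times in the WT-labelled ones. The ratio was lowest in NK1 and highest, at 0.240, in NK11 and NK12.

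Dagla and Daglb encode the diacylglycerol lipases alpha and beta, which release 2-AG from diacylglycerol, and the alpha enzyme is the one known for synaptic 2-AG. Dagla lies on chromosome 19 from 10222629 to 10282241 (minus strand, ENSMUSG00000035735.11). Its lowest, median and highest levels were 7.43, 8.68 and 10.3 CPM in the KO-labelled libraries, and 5.03, 8.53 and 9.90 CPM in the WT-labelled ones. NK9 stood at 5.03 CPM, below the 7.23 CPM of NK10, the next lowest. The difference on the log2 scale was 0.07 with an SE of 0.14 (likelihood ratio test of edgeR, adjusted p = 0.90), and leaving out 1 library gave −0.01 without NK9 to 0.13 without NK12.

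Daglb lies on chromosome 5 from 143450339 to 143491697 (plus strand, ENSMUSG00000039206.14) and had the lowest level per length of the 9, with 16 to 118 counts per library. In the KO-labelled libraries its lowest, median and highest levels were 1.23, 2.01 and 2.35 CPM. In the WT-labelled libraries they were 2.12, 2.64 and 2.68 CPM. The WT-labelled NK9, NK10, NK11 and NK12 lay above all the KO-labelled libraries, and NK1, NK2, NK4 and NK6 lay below all WT-labelled ones. On the log2 scale the KO-labelled mean differed by −0.32 with an SE of 0.15 (unadjusted p = 0.0382, likelihood ratio test of edgeR, adjusted p = 0.380, 95% interval −0.62 to −0.02), the furthest from 0 of the 9. Leaving out each library gave −0.38 without NK5 to −0.23 without NK1, which had 16 counts.

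Of the 9567 exon bases of Daglb, 2309 (24.1%) are shared with exons of Rac1, which is read from the other strand. Rac1, a small GTPase gene, was counted at 31.7 ± 1.83 CPM (SD, n = 6) in the KO-labelled libraries and 32 ± 1.11 CPM (SD, n = 6) in the WT-labelled ones. The libraries were directional, but the strand setting of the counting is not given in the sources used here, so the level of Daglb is uncertain.

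Within each library Dagla exceeded Daglb per length of exon. The ratio ran from 5.26 to 10.6 in the KO-labelled libraries (median 7.29) and from 3.16 to 7.37 in the WT-labelled ones (median 5.71), with NK1, NK2 and NK6 above all WT-labelled ones. Such a ratio does not depend on the scaling between libraries, and it is given as a description without a test. The ratio of Dagla to Mgll, between the enzymes that make and break down most 2-AG, ran from 0.501 to 0.605 in the KO-labelled libraries and from 0.344 to 0.532 in the WT-labelled ones. NK1, NK2, NK4 and NK5 lay above all the WT-labelled libraries, NK9 was lowest at 0.344 and NK12 next at 0.407.

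**Figure D2:**
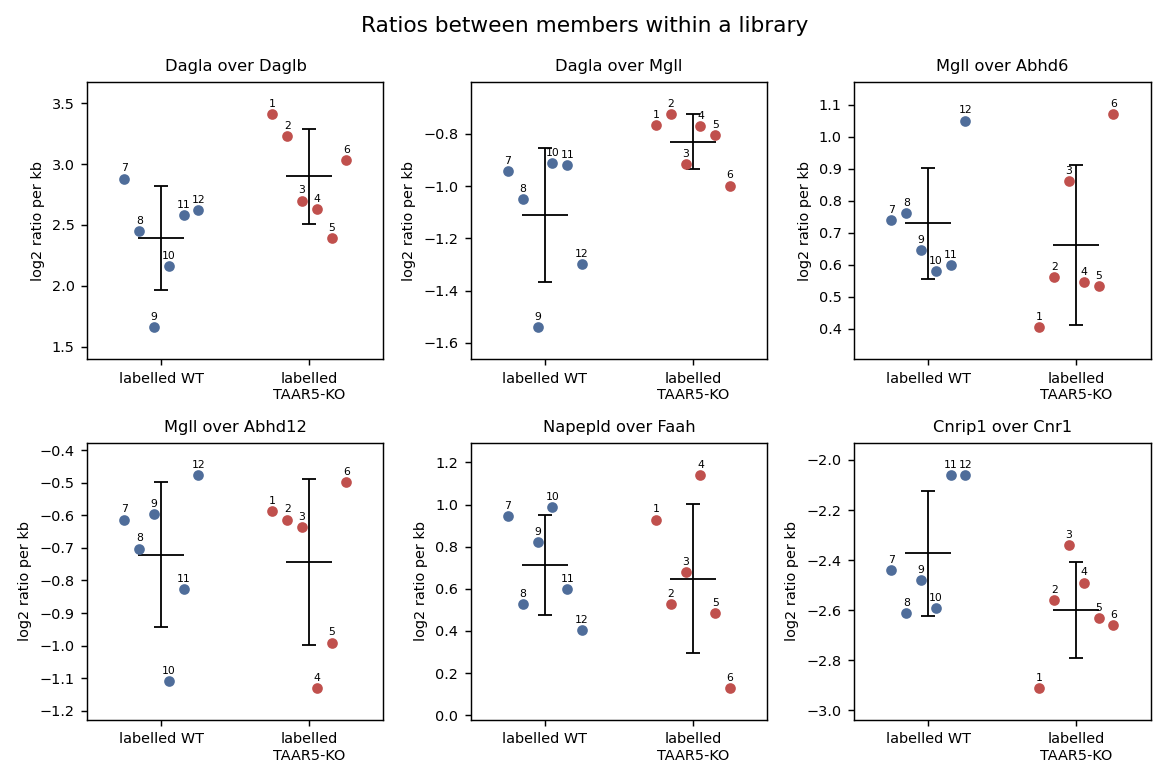
Log2 ratio of 6 pairs of members per kb of exon (0.5 counts added to each), 1 point a library with its number, WT-labelled in blue and KO-labelled in red, with mean and SD of 6 libraries. The Dagla over Mgll ratio has 4 KO-labelled libraries above all WT-labelled ones, and the groups overlap in every pair.

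Mgll encodes monoacylglycerol lipase, the main hydrolase of 2-AG in brain, found in axon terminals and astrocytes. It lies on chromosome 6 from 88701394 to 88805342 (plus strand, ENSMUSG00000033174.18). Its lowest, median and highest levels were 11.2, 13.6 and 17.7 CPM in the KO-labelled libraries, and 12.0, 15 and 21.5 CPM in the WT-labelled ones. NK12 was the highest of the 12 and NK4 the lowest. This was a log2 difference of −0.17 with an SE of 0.15 (likelihood ratio test of edgeR, adjusted p = 0.692), and it was −0.26 without NK6 and −0.05 without NK12. The 6 astrocyte markers had a summed level of 953.0 to 1177 CPM in the KO-labelled libraries and 1059 to 1249 in the WT-labelled ones (two-sided exact permutation test, p = 0.221), with 6 of 6 log2 fold changes below 0 and 1 called.

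Abhd6 and Abhd12 encode membrane hydrolases that take a smaller part in 2-AG breakdown. ABHD6 sits in the postsynaptic membrane, and ABHD12 also hydrolyses lysophosphatidylserine and is abundant in microglia. Abhd12 lies on chromosome 2 from 150674413 to 150746661 (minus strand, ENSMUSG00000032046.16). It had 10.1, 13.1 and 13.9 CPM as its lowest, median and highest levels in the KO-labelled libraries, and 10.9, 14.1 and 16.6 CPM in the WT-labelled ones. NK10, NK11 and NK12 lay above all the KO-labelled libraries, and NK1 below all WT-labelled ones. The difference on the log2 scale was −0.14 with an SE of 0.11 (likelihood ratio test of edgeR, adjusted p = 0.643). It was −0.09 without NK1 or without NK12, and −0.05 with the trend on GC content removed. Of the 5 microglia markers, 5 had a log2 fold change below 0 and 2 were called, and their summed level was 24.2 to 34.3 CPM in the KO-labelled libraries and 34.1 to 41.2 in the WT-labelled ones (two-sided exact permutation test, p = 0.00433, adjusted over the 10 lists p = 0.0433). Over the 12 libraries Abhd12 had r = 0.253 with this sum (permutation p = 0.428, adjusted over 90 p = 0.765) and rho = 0.273 (permutation p = 0.391, adjusted p = 0.693). Its r was 0.371 without NK2 and NK3, −0.179 within the KO-labelled and 0.175 within the WT-labelled libraries.

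Abhd6 lies on chromosome 14 from 14413010 to 14466871 (minus strand, ENSMUSG00000025277.15). It had 3.78 ± 0.395 CPM (SD, n = 6) in the KO-labelled libraries and 4.02 ± 0.520 CPM (SD, n = 6) in the WT-labelled ones. NK11 (4.66 CPM) and NK12 (4.54 CPM) were above all KO-labelled ones, whose highest was 4.45 CPM in NK2. On the log2 scale the KO-labelled mean differed by −0.15 with an SE of 0.12 (likelihood ratio test of edgeR, adjusted p = 0.687). Mgll was at 1.32 to 2.10 times the level of Abhd6 per length and at 0.456 to 0.719 times that of Abhd12, and in both ratios the groups overlapped.

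On the anandamide side, Napepld encodes the phospholipase D that releases anandamide from its phospholipid precursor. It lies on chromosome 5 from 21867899 to 21906394 (minus strand, ENSMUSG00000044968.17) and had 16 to 98 counts per library. Its level was 2.06 ± 0.342 CPM (SD, n = 6) in the KO-labelled libraries and 2.35 ± 0.548 CPM (SD, n = 6) in the WT-labelled ones. This was a log2 difference of −0.19 with an SE of 0.17 (likelihood ratio test of edgeR, adjusted p = 0.713). NK11 had the highest level, 3.28 CPM, and without it the log2 fold change was −0.07.

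Faah encodes fatty acid amide hydrolase, which ends the action of anandamide. It lies on chromosome 4 from 115824342 to 115875123 (minus strand, ENSMUSG00000034171.14) and had 18 to 156 counts per library. Its lowest, median and highest levels were 1.91, 2.41 and 4.07 CPM in the KO-labelled libraries, and 1.97, 2.56 and 4.29 CPM in the WT-labelled ones. NK11 and NK6, one of each label, stood above the other libraries. The difference on the log2 scale was −0.11 with an SE of 0.21 (likelihood ratio test of edgeR, adjusted p = 0.895), 0.04 without NK11 and −0.31 without NK6. Faah had the widest spread of the 9, with a biological coefficient of variation of 20.5% in the fit, above that of 83.4% of the features tested. Abhd6 had the narrowest at 8.92%, with Cnr1 at 9.43%.

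**Figure D3:**
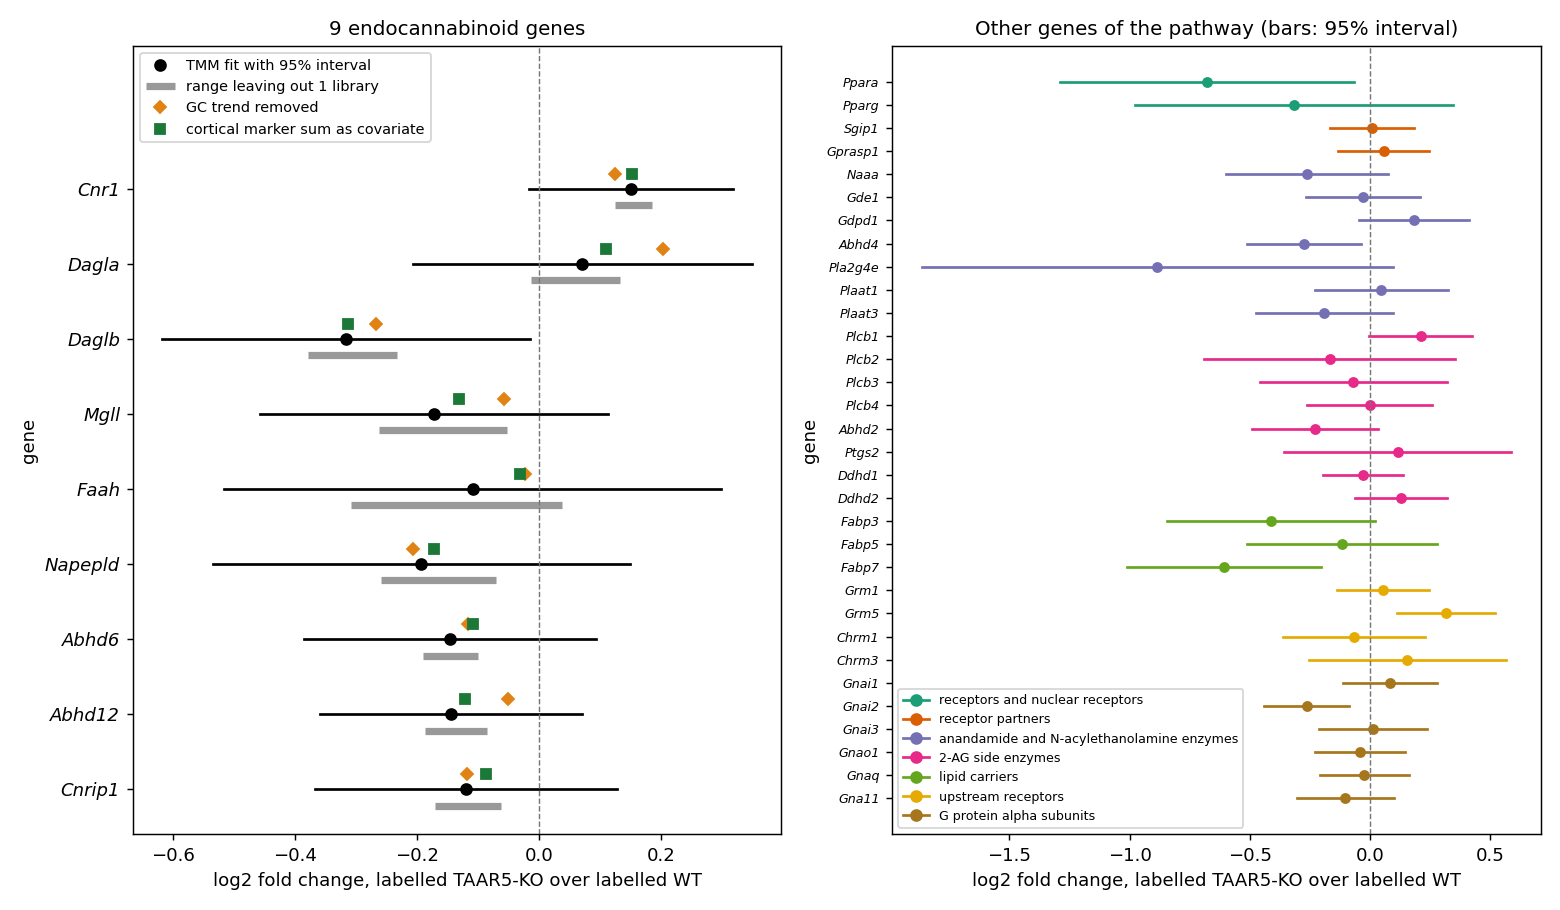
Log2 fold change of the KO-labelled libraries over the WT-labelled ones on the horizontal axis, for the 9 genes (left) and for 32 other tested genes of the pathway coloured by role (right), with 95% intervals as bars. On the left, grey bars give the range of fits that left out 1 library, orange diamonds the fit with each library's trend on GC content removed, and green squares the fit with the cortical marker sum as a covariate. Among the 9 genes on the left Daglb lies furthest from 0, at −0.32.

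Levels between genes were compared as CPM per kb of exon. Cnr1 had 5.87 ± 0.504 CPM per kb (SD, n = 12), above 95.7% of the features tested. Abhd12 followed with 4.75 ± 0.646, Mgll with 2.89 ± 0.593, Abhd6 with 1.75 ± 0.206, Dagla with 1.47 ± 0.274 and Cnrip1 with 1.05 ± 0.139 CPM per kb (SD, n = 12 each). The lowest were Napepld with 0.557 ± 0.117, Faah with 0.353 ± 0.0978 and Daglb with 0.233 ± 0.0453 CPM per kb (SD, n = 12 each). Transcripts of the receptor and of the 2-AG hydrolases were at the top of this order and the anandamide enzymes with Daglb at its end.

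The order held in 12 of 12 libraries between Abhd12 and Mgll, Mgll and Abhd6, Cnrip1 and Napepld, and Napepld and Faah. It held in 11 of 12 between Abhd6 and Dagla, Dagla and Cnrip1, and Faah and Daglb. Cnr1 exceeded Abhd12 in 10 of 12 libraries, not in NK11 and NK12. The ranges over the 12 libraries overlapped between all neighbours in this order except Mgll (2.21 to 4.24 CPM per kb) and Abhd6 (1.5 to 2.09).

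**Figure D4:**
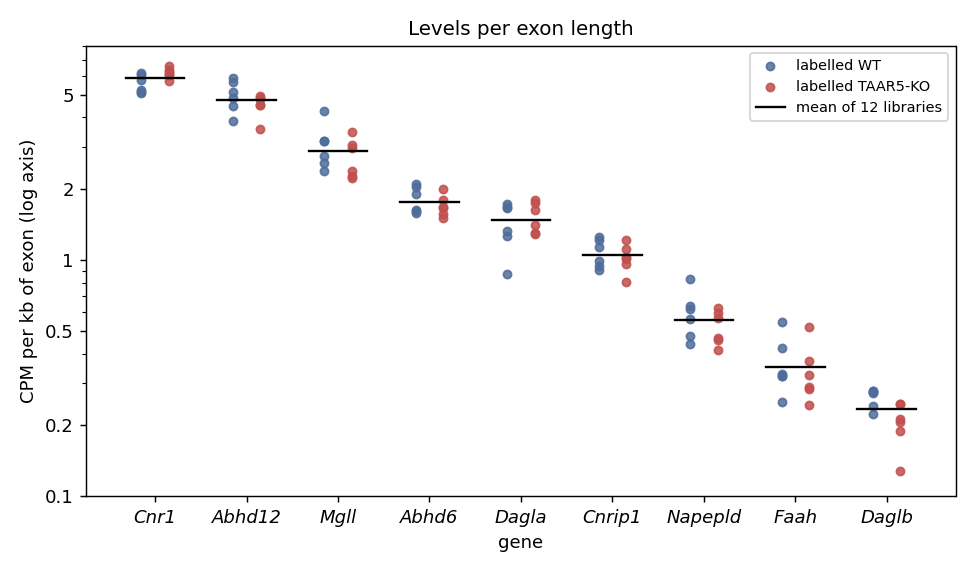
CPM per kb of exon of the 9 genes in 12 libraries on a log axis, ordered by the mean of all libraries (black lines), with WT-labelled libraries in blue and KO-labelled in red. Means run from 5.87 for Cnr1 down to 0.233 for Daglb, and the colours overlap for each gene.

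NK11 was highest for 4 of the 9 and NK12 for 3, all of them genes of ligand turnover or Cnrip1, and both were among the lowest 3 for Cnr1. NK1 was lowest for 4 of the 9, and NK9 was among the lowest 3 for 6. Among all features tested other than the 9, those whose log2 CPM followed Cnr1 most closely over the 12 libraries were Cdh9, Akap17b, Srsf7, Eif4e3 and Birc6, with Pearson's r from 0.838 to 0.858. These are the 5 highest of all features, so they describe likeness and carry no p. Of the other 8 members, Dagla had the highest r with Cnr1, 0.310, which 18.3% of features reached, and the other 7 were between −0.505 (Daglb) and −0.116 (Cnrip1). All these values share the same libraries, scaling and depth.

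On the TMM scale, the levels of Dagla and Mgll correlated with the summed markers of cortical pyramidal neurons. This relation was noticed in the data and then examined for all 9 genes with all 10 marker lists, 90 relations in all, on log2 values over the 12 libraries. The summed level of the 5 cortical markers was 25.2 to 93.4 CPM in the KO-labelled libraries and 31.3 to 101.8 in the WT-labelled ones (two-sided exact permutation test, p = 0.972), lowest in NK4 and highest in NK12. Dagla had Pearson's r = 0.836 with this sum (permutation p = 3.30e-04, adjusted over 90 p = 0.0193) and Spearman's rho = 0.846 (permutation p = 8.40e-04, adjusted p = 0.0489). Without NK4 and NK9, the 2 libraries furthest from the median sum, its r was 0.923. Within the KO-labelled libraries it was 0.923 (n = 6, exact permutation p = 0.0264) and within the WT-labelled ones 0.942 (n = 6, exact permutation p = 0.00139). For Dagla and Mgll alike, p within a label was computed only because the relation had passed over the same 12 libraries. These p-values are therefore not a separate test.

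Mgll had r = 0.863 with the same sum (permutation p = 4.30e-04, adjusted over 90 p = 0.0193) and rho = 0.832 (permutation p = 0.00135, adjusted p = 0.0489). Its r was 0.876 without NK4 and NK9, 0.896 within the KO-labelled libraries (n = 6, exact permutation p = 0.0278) and 0.897 within the WT-labelled ones (n = 6, exact permutation p = 0.0153). These 2 were the relations past an adjusted p of 0.05 by Pearson's r, and an r as high with this sum was reached by 2.14% of all features for Dagla and 1.49% for Mgll. Abhd6 had r = 0.754 (permutation p = 0.00656, adjusted p = 0.148) and rho = 0.825 (permutation p = 0.00163, adjusted p = 0.0489). Faah had r = 0.617 (permutation p = 0.0332, adjusted p = 0.308) and rho = 0.566 (permutation p = 0.0592, adjusted p = 0.380). Cnrip1 had r = 0.600 (permutation p = 0.0408, adjusted p = 0.308) and rho = 0.664 (permutation p = 0.0225, adjusted p = 0.214). The r of Abhd12, Napepld, Cnr1 and Daglb was 0.452, 0.210, 0.063 and 0.030. Within the WT-labelled libraries r was 0.945 for Cnrip1, 0.901 for Abhd6, 0.861 for Abhd12 and 0.830 for Faah, and within the KO-labelled ones 0.334, 0.674, 0.065 and 0.449. Differences in r between the genes were not tested. On the TMM scale some rho values with other sums were also far from 0, with either sign and no adjusted p under 0.05. Among them were −0.79 for Mgll with the spiny neuron sum, −0.706 for Dagla with the choroid plexus sum and 0.699 for Abhd6 with the astrocyte sum. NK4, lowest for the cortical sum, was highest for the choroid plexus sum at 466.8 CPM. When counts outside ribosomal RNA were the only scaling, all 90 relations were positive. With the cortical sum the 9 genes then lay closer together, from 0.527 for Daglb and 0.578 for Cnr1 to 0.844 for Dagla and Mgll. On that scaling Dagla and Mgll had a higher r with the astrocyte sum (0.901 and 0.953) and the interneuron sum (0.864 and 0.897). Their r with each other list was at most 0.844, so the cortical sum did not stand out. Genes and sums share libraries and scaling, and why they moved together was not tested.

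With the log2 cortical sum as a covariate beside the label, a fit added after the data were seen, edgeR's likelihood ratio test again called 0 of the 9, beside 4.83% of all features tested. The standard error narrowed from 0.14 to 0.090 for Dagla, whose log2 fold change became 0.11 (adjusted p = 0.598), and from 0.15 to 0.090 for Mgll, which became −0.13 (adjusted p = 0.508). The narrowing follows from the r of these genes with the same sum in the same libraries and is not a separate result.

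**Figure D5:**
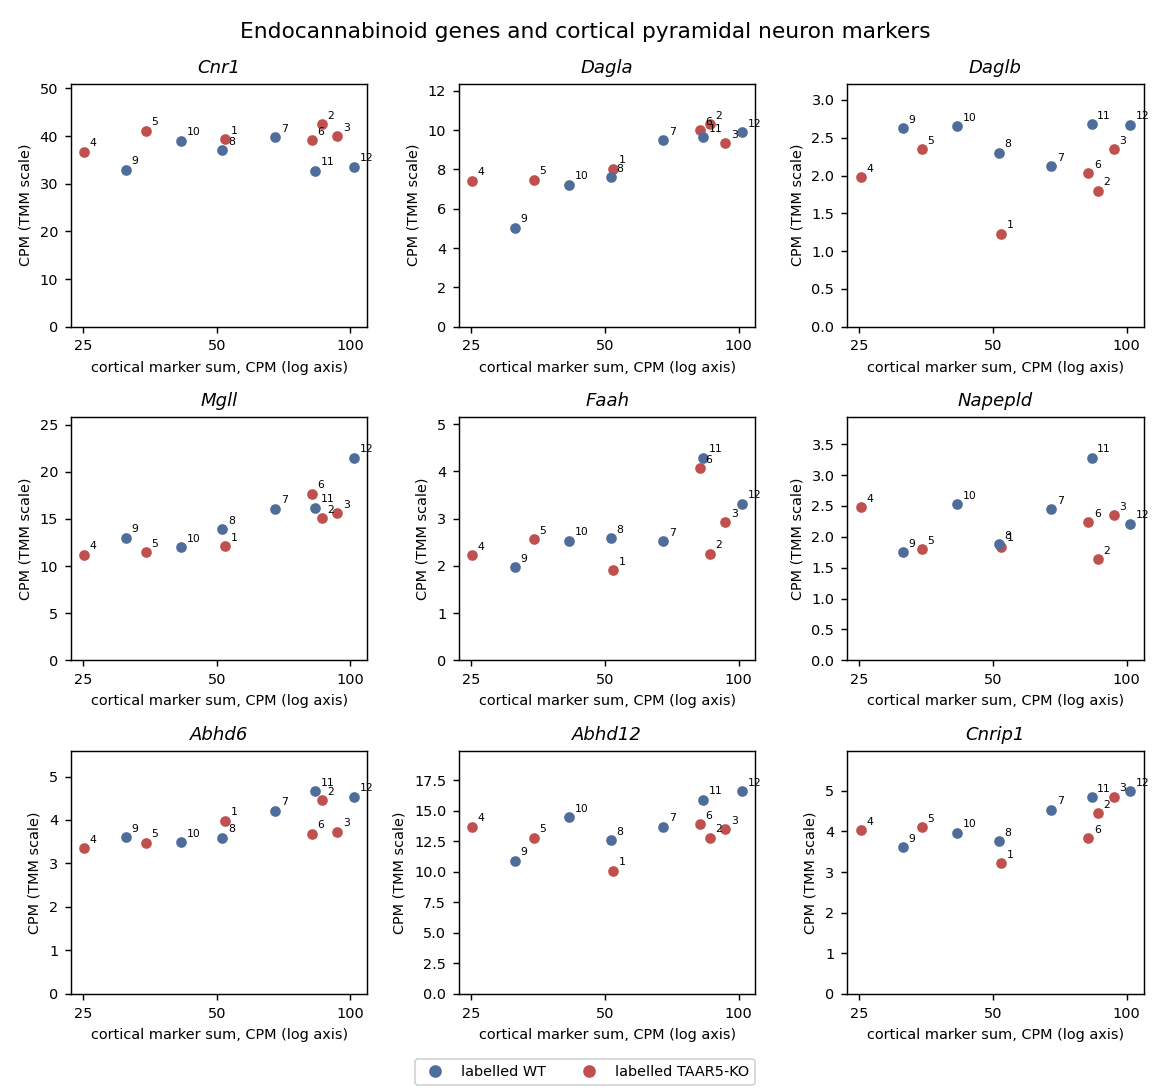
CPM on the TMM scale of each of the 9 genes against the summed CPM of 5 cortical pyramidal neuron markers (log axis), 1 numbered point a library, WT-labelled in blue and KO-labelled in red. Dagla and Mgll climb with the sum in both colours (r = 0.836 and 0.863 on log2 values), and r is 0.063 for Cnr1 and 0.030 for Daglb.

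A further 39 genes of the pathway were listed by name, of which 32 passed the filter. By the likelihood ratio test 0 of these 32 were called in either direction, beside the 1.65% of all features, and 5 had an unadjusted p under 0.05, beside 11.9% of all features. DESeq2 called 2 (Grm5 and Gnai2), without an adjusted p for Fabp7, and the quasi-likelihood test called 0. The median log2 fold change was −0.03, with 13 above 0 and 19 below. The 7 that did not pass had at most 10 counts in any library. They were the receptor genes Cnr2, which encodes the CB2 receptor of immune cells, Gpr55, Gpr18, Gpr119 and Trpv1, and the enzyme genes Gdpd3 and Plaat5. Cnr2 had at most 3 counts.

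The smallest p belonged to Grm5, Fabp7 and Gnai2. Grm5 encodes the metabotropic glutamate receptor mGluR5, whose activation leads through phospholipase C to 2-AG synthesis. It had 64.4 ± 7.20 CPM (SD, n = 6) in the KO-labelled libraries and 51.4 ± 5.64 CPM (SD, n = 6) in the WT-labelled ones, with 5 of 6 KO-labelled libraries above all WT-labelled ones. On the log2 scale the KO-labelled mean differed by 0.32 with an SE of 0.10 (likelihood ratio test of edgeR, adjusted p = 0.110), with an adjusted p of 0.0504 by DESeq2, 0.0364 with the cortical sum as a covariate, 0.189 by the quasi-likelihood test and 0.372 with the GC trend removed (log2 0.25). Grm5 shares its direction with the spiny neuron marker sum given above, and the part of those markers was not tested.

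Fabp7 encodes a fatty acid-binding protein of astrocytes and progenitors that can carry anandamide. It had 1.53 ± 0.409 CPM (SD, n = 6) in the KO-labelled libraries and 2.30 ± 0.488 CPM (SD, n = 6) in the WT-labelled ones, which is −0.61 on the log2 scale with an SE of 0.21 (likelihood ratio test of edgeR, adjusted p = 0.130, 0.0493 with the covariate, 0.0770 with the GC trend removed and 0.208 by the quasi-likelihood test). Gnai2 encodes an inhibitory G protein alpha subunit through which receptors such as CB1 can signal. It had 15.2 ± 1.78 CPM (SD, n = 6) in KO-labelled and 18.1 ± 0.934 CPM (SD, n = 6) in WT-labelled libraries, which is −0.26 on the log2 scale with an SE of 0.089 (likelihood ratio test of edgeR, adjusted p = 0.134). Its adjusted p was 0.0273 with the covariate, 0.0990 by DESeq2, 0.201 by the quasi-likelihood test and 0.632 with the GC trend removed, where it was at −0.16. It is expressed in microglia too, whose marker sum was lower in the KO-labelled libraries, and the part of those cells was not tested.

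The receptor partners were close to 0, with Sgip1, whose protein holds CB1 at the membrane, at a log2 fold change of 0.01 and Gprasp1, which encodes a sorting protein, at 0.06. Of the 7 tested genes of anandamide and related N-acylethanolamines 2 were above 0 and 5 below, of the 8 on the 2-AG side 4 and 4, and of the 6 G protein alpha subunits 2 and 4. All 3 lipid carriers were below 0 and 3 of the 4 upstream receptors above, with 0 called by the likelihood ratio test.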

How the data were processed

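Per the labels and the methods, the authors depleted striatal RNA of ribosomal RNA, sequenced single-end reads, used Cutadapt 4.1 for trimming, STAR 2.7.11b for alignment to GRCm39, and featureCounts 2.0.6 for counts per gene. They deposited whole-number counts without normalization, with exon lengths. The table's other 12 columns of library counts were left unused. Columns carry a genotype but no animal number, so each was a replicate of its label. Sex and batch are not tied to columns, and p-values measure the spread between libraries. The 30 pairs of libraries within a label differed by more than sampling noise.

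Counts were fitted with edgeR 4.0.16 (R 4.3.3) on all features that reached 0.5 CPM of the unscaled total in 3 or more libraries, with TMM, estimateDisp, glmFit and glmLRT, the study's test, and Benjamini–Hochberg adjustment over 13902 features. The 95% intervals are normal intervals from the SE. The fit was tested on simulated data. DESeq2 1.42.0 and further settings were alternatives. Marker sums were compared over all 924 splits, and correlations by 100000 permutations. The genes named were the 9 members, the called or otherwise 3 smallest-p genes of the pathway list, and the 5 nearest to Cnr1. Members and lists were chosen with earlier results of these data known. GC content came from the exons in the file on GRCm39, and ribosomal RNA features from GENCODE M39. Intervals cover no counting bias such as reads shared between copies or overlapping genes.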

Additional observations from a re-analysis of the deposited data

Results flagged for a closer look

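Abhd12 in KO-labelled NK1 stood at 10.1 CPM, below the 12.8 to 13.9 CPM of the other 5 libraries of that label, a gap of 0.702 of the range that passed Dixon's 95% critical value. It was the 1 flag among 30 sets of 6 values examined (9 genes and 6 ratios in 2 labels), and chance flags about 1 in 20 such sets.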

How the results depend on the processing

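No paired analysis was possible because the columns of the count table carry no animal number that the labels share. The count of members called was 0 in all 24 alternatives, including every fit that left out 1 library. The 229 calls over all features (133 higher, 96 lower) became 63 with the quasi-likelihood test, 7 with library size as the only scaling (0 higher, 7 lower), 93 without a filter, 86 with the GC trend removed, 108 at an adjusted p under 0.05 and 672 with the cortical marker sum as a covariate. Leaving out 1 library gave 85 to 414 calls, namely 414 without NK4, 85 without NK11, 102 without NK7, 114 without NK1 or NK2, 137 without NK3 and 136 without NK12. The 0 calls of the pathway list became 2 with DESeq2 (Grm5 and Gnai2), 1 with the GC trend removed (Fabp7), 3 with the cortical covariate, and 0 to 3 without 1 library, 3 without NK4 and 1 without NK5, NK6, NK8 or NK9. Scaling by library size alone moved the features' median to −0.49 on the log2 scale, all 9 members were below 0 (median −0.64), Grm5 was at −0.25, and the log2 ratio of the spiny neuron marker sum turned to −0.19 (exact permutation p = 0.706). With the GC trend removed Dagla was at 0.20 and Mgll at −0.06. DESeq2 gave no adjusted p for 7009 features, among them Daglb, Napepld and Fabp7. The cause of these shifts was not tested. Genes with under 20 counts in a library, such as Daglb, Faah and Napepld, are limited by depth.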

Other observations

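Of the other cell type marker lists, the sum of the 5 mature oligodendrocyte markers was 563.0 to 682.6 CPM in KO-labelled and 591.8 to 756.5 CPM in WT-labelled libraries (two-sided exact permutation test, p = 0.0281, adjusted over 10 lists p = 0.0938), with 5 of 5 below 0 and 0 called. The 2 precursor markers summed to 6.33 to 8.82 and 7.47 to 10.3 CPM (exact permutation p = 0.0455, adjusted p = 0.114). The sums overlapped for endothelium (4.93 to 7 and 4.46 to 6.51 CPM, exact permutation p = 0.602), ependyma (1.23 to 6.75 and 2.45 to 4.16 CPM, p = 0.775 by exact permutation), interneurons (24.3 to 28.6 and 22.2 to 31.3 CPM, p = 0.916 by exact permutation) and choroid plexus (2.60 to 466.8 and 3.50 to 285.0 CPM, p = 0.574 by exact permutation). No relation of the 9 genes with any of these 6 sums passed an adjusted p of 0.05 by Pearson's r or by Spearman's rho. With the choroid plexus sum rho was −0.72 for Abhd6 (permutation p = 0.0106, adjusted p = 0.157) and −0.706 for Dagla (permutation p = 0.0130, adjusted p = 0.157). With the ependyma sum it was −0.657 for Abhd6 (permutation p = 0.0237, adjusted p = 0.214). These were the rho values furthest from 0.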
